A study of Caenorhabditis elegans with 2 samples.

Results

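The genes examined here encode the translation initiation and elongation factors of the nematode Caenorhabditis elegans. They were taken by symbol: protein-coding genes whose name starts with eef, eif, iff, ife or ifg and a number, and inf-1, which gave 40 genes of 19973 on the nuclear chromosomes. The measurement was the binding of NHR-12, a nuclear hormone receptor, by chromatin immunoprecipitation and sequencing (ChIP-seq). All libraries came from whole L1 larvae, the stage just after hatching, of pooled sexes and unknown age, of strain OP318 with the genotype unc-119(ed3) III; wgIs318. This line carried a transgene for NHR-12 with GFP and FLAG at its C terminus; the labels give neither its promoter nor whether the endogenous receptor was still present. The labels name nhr-12 as the antibody target. There were 2 biological replicates of this 1 group and no other condition, so regions were described and no difference between conditions was tested.

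Translation starts when eukaryotic initiation factors (eIFs) bring the initiator tRNA, the small ribosomal subunit and the capped end of an mRNA together. Elongation factors (eEFs) then deliver each aminoacyl-tRNA to the ribosome and move the ribosome along the message. Their genes are expressed in nearly every growing cell. Nuclear hormone receptors are zinc-finger transcription factors, a family that is greatly enlarged in nematodes.

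A region was counted for a gene when its midpoint lay in the promoter window, which reached 500 bp upstream of the annotated 5′ end and 200 bp into the gene. The authors deposited a list for each replicate, a joint list called on both replicates together, and a set selected from the joint list by the irreproducible discovery rate (IDR), which compares ranks between replicates. The replicate and joint lists also held background regions by design, so a listing alone is not a binding site. Each region carried a signal, the authors' own value with no stated scale, read here only within its list. Read depth was unknown, since the lists hold no counts.

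Sequences at or beside the midpoints of 6 of the joint regions are shown so that regions of several factor groups can be compared by eye. The 2 strongest regions, those of eef-2 and eif-3.C, are not among them. They are from the WBcel235 reference (RefSeq assembly), the build that ce11 names. Each is the longest stretch, within 100 bp of the midpoint on either side, that touched no annotated exon, written 5′ to 3′ on the strand of the factor gene. The stretch of eif-3.D lies on one side of its midpoint (chrIII:8971894) and does not hold it. Capitals mark TGCGTA or its reverse complement TACGCA.
eif-3.B, chrII:14794976-14795176, plus strand: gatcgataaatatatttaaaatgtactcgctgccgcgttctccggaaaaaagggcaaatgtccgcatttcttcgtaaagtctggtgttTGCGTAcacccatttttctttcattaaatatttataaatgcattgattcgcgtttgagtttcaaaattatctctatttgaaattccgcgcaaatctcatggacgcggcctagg
eef-1A.1, chrIII:6972086-6972238, minus strand: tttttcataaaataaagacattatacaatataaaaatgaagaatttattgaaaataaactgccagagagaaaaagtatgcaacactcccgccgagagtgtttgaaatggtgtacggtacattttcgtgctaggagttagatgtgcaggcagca
eef-1A.2, chrX:7823199-7823384, plus strand: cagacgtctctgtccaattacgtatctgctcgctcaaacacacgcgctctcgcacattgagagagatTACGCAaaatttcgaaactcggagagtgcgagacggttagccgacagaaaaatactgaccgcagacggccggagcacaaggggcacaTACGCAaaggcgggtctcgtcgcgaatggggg
eef-1G, chrV:10965573-10965718, plus strand: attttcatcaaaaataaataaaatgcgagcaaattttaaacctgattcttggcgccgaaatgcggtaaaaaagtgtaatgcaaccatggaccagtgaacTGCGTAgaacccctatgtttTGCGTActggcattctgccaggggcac
iff-2, chrII:8561368-8561478, minus strand: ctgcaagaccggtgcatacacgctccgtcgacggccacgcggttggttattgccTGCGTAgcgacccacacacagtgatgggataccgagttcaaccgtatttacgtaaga
eif-3.D, chrIII:8971794-8971891, minus strand: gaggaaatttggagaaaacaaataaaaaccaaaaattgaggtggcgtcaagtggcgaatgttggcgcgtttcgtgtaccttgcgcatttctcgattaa

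The hexamer TGCGTA was picked after these sequences had been read, so its counts are a description with no test. It was present on either strand in the 201 bases around the midpoint at 4 of the 13 joint regions of factor genes, those of eif-3.B, eef-1A.2, eef-1G and iff-2. All 4 are among the 6 printed regions, from which it was picked, and none of the 7 regions not printed held it. The stretches of eef-1A.2 and eef-1G each held 2 copies. Among all 851 joint regions in promoter windows 53 (6.23%) held it, and among the 79 that were also in the IDR set 11 (13.9%) did. In promoters of 300 bases, from 250 before the 5′ end, it stood in 6 of the 40 factor genes and in 6.41% of all genes.

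The other 8 patterns were searched on both strands, in the 13 regions beside the 851 and in the 40 promoters beside those of all genes. AGGTCA, the half-site that many nuclear hormone receptors recognise, was in 0 of the 13 joint regions, against 3.06% of the 851, and in 4 of 40 promoters, against 8.27% of all. TTTCAG was in 4 regions (32.5% of the 851), as many as TGCGTA, and in 25 promoters (51.7% of all). TATAAA was in 3 regions (20.9%) and 17 promoters (37.9%). GAGAGA was in 2 regions (20.3%) and 6 promoters (21.8%), and TGATAA in 1 region (15.0%) and 13 promoters (30.2%). None of the 13 regions held CACGTG (4.35% of the 851), GGGCGG (7.99%) or the pattern GAAGAAG (5.52%). In promoters these stood at 0 (5.82% of all), 1 (7.83%) and 3 (10.3%). For AGGTCA and these patterns alike, 13 regions are too few for a count of 0 to show a lack. The median GC content of the 201 bases was 40.3% at factor genes, from 26.9% at ifg-1 to 55.2% at eef-1A.2, and 36.3% over all joint regions in promoter windows. A 30-base word of the region occurred elsewhere in the genome in 12.7% of words for eif-3.B and in 0% for each of the other 12 regions. The eif-3.B region is thus the least unique in sequence, and how the authors placed reads with several matches was not given in the sources used here.

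The joint list held a region in the promoter window of 13 of the 40 factor genes (32.5%), where 4.98% of all protein-coding genes had one. With a window of 250 bp upstream the count was 7, against 3.04% of all genes. The IDR set held a region at 3 (7.5%), against 0.511% of all genes, and its stronger 82 regions stood at 1, against 0.21%. Replicate 1 listed a region at 20 factor genes (50%), against 21.4% of all genes, and replicate 2 at 18 (45%), against 24.8%. Regions of each replicate stood at 12 (30%), against 8.16%, and at 10 (25%), against 4.34%, when the 2 midpoints had to lie within 100 bp of each other. With 250 bp upstream the 12 became 7, against 4.01%. Some region of either replicate stood at 26 genes (65%), against 38% of all genes. The remaining 14 genes had no region of any list in the window: eef-1B.2, eif-2A, eif-2D, eif-2alpha, eif-2Balpha, eif-3.E, eif-3.F, eif-3.I, eif-3.K, eif-3.L, ife-2, ife-4, ife-5 and iff-1. With no input or other factor analysed here, whether these shares are particular to NHR-12 was not tested.

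**Figure D1:**
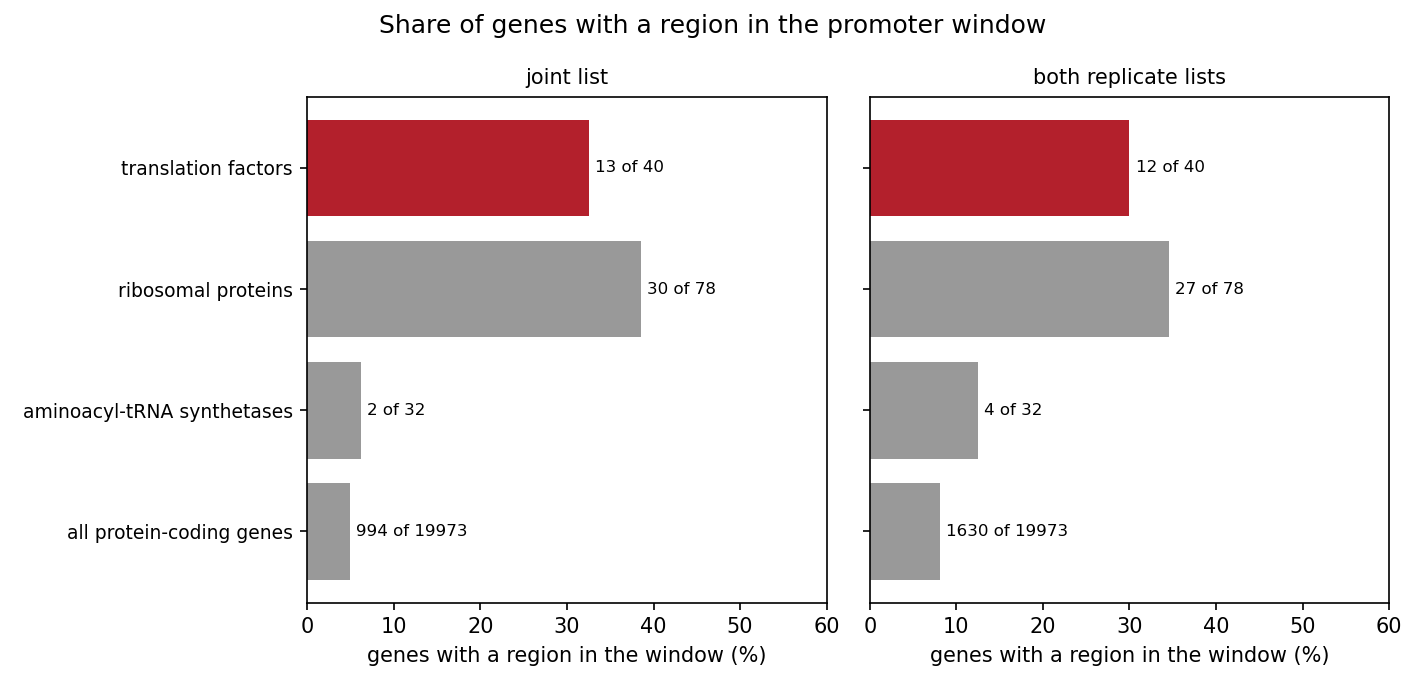
Share of genes, in percent, with a region midpoint in the promoter window, for the joint list (left) and for both replicate lists (right); the counts stand beside the bars. The 40 translation factor genes (red) stood at 32.5% and 30%, cytosolic ribosomal protein genes at 38.5% and 34.6%, aminoacyl-tRNA synthetase genes at 6.25% and 12.5%, and all protein-coding genes at 4.98% and 8.16%.

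The plot of shares sets the factors beside other parts of the same machinery. In the 2 counts plotted, the factor genes stood near the cytosolic ribosomal protein genes, of which 30 of 78 had a joint region. In the replicate 1 list both stood at 50% (21.4% of all genes). They lay farther apart in the IDR set, at 7.5% and 12.8% (0.511% of all genes), and in replicate 2, at 45% and 62.8% (24.8%). With a replicate 2 rank of 1000 or better the shares were 10% and 32.1% (1.98%). In the joint list synthetases, which charge tRNAs with amino acids, stood near the background, with 2 of 32: mars-1 (signal 23.1) and ears-2 (22.1). That list held cytosolic and mitochondrial synthetases together, and the ears-2 region also stood in the window of uncp-18. These differences between lists were not tested.

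Of the 6 elongation factor genes 5 had a joint region (4.98% of all genes) and 5 a region in each replicate within 100 bp (4.34%). A joint rank of 1908 or better was also found at 5, and 3.12% of all genes had one. The exception was eef-1B.2, the other gene named for eEF1B, which had no region in its window.

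The gene eef-2 (WBGene00001167) encodes the GTPase that moves the ribosome by a codon, and had the strongest region of all 40 genes. It lies on chromosome I at 9163531 to 9166952 on the plus strand, and the region at 9163343 to 9163718 had its midpoint on the annotated 5′ end itself (0 bp). Its signal was 55.0 in the joint list, rank 69 of 3817, and it belonged to the IDR set. In replicate 1 the signal was 14.7, rank 893 of 26878, and in replicate 2 it was 38.9, rank 32 of 30000. The midpoints of the replicates lay 2 bp upstream and 17 bp downstream of the 5′ end. The divergent gene clsp-1 (claspin, a replication checkpoint protein) is separated from it by 264 bp, and the region stood in its window too, so the gene concerned is not known.

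The 2 genes for eEF1A, the factor that carries aminoacyl-tRNA to the ribosome, both had a joint region far upstream. At eef-1A.1 (WBGene00001168, chromosome III, 6970026 to 6971712, minus strand) it lay 426 bp upstream with a signal of 33.2, rank 213. Replicate 2 gave it a signal of 22.6, rank 136, and replicate 1 a signal of 9.61, rank 7434. It was nearer to the 5′ end of the divergent gene rfc-4, a subunit of the clamp loader of DNA replication, at 115 bp upstream of it, and a microRNA gene, cel-mir-5549, lay within 200 bp. At eef-1A.2 (WBGene00001169, chromosome X, 7823654 to 7825769, plus strand) it lay 355 bp upstream in no other protein-coding window, with a signal of 24.4, rank 612. The signals were 7.77 (rank 14730) in replicate 1 and 13.1 (rank 1093) in replicate 2. In these windows replicate 2 ranked both regions higher than replicate 1 did. Farther from eef-1A.2, outside its window, replicate 1 had a stronger region 612 bp upstream (signal 16.5, rank 456), and the joint list had one 633 bp upstream (signal 25.2, rank 544) that ranked above the region inside. A noncoding RNA gene, R03G5.8, lay within 200 bp of the midpoint inside the window.

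The other subunits belong to the eEF1B complex, which recharges eEF1A with GTP. At eef-1G (WBGene00008920, chromosome V, 10965719 to 10967922, plus strand) the joint region lay 46 bp upstream with a signal of 32.0, rank 235. Here the order of the replicates was the opposite, with a signal of 22.9, rank 104, in replicate 1 and 7.43, rank 12535, in replicate 2. The divergent gene ctf-4, for a replication factor, is separated from it by 179 bp, and its window held the region as well. At eef-1B.1 (WBGene00018846, chromosome III, 7972382 to 7973386, minus strand) the region lay 48 bp downstream of the 5′ end with a signal of 25.7, rank 504, in replicate 1 a signal of 11.8, rank 3068, and in replicate 2 a signal of 8.56, rank 7897. It stood in the window of the divergent gene aco-2, the mitochondrial aconitase, too, and the noncoding RNA gene F54H12.9 lay within 200 bp. Of the 5 elongation factor regions, that of eef-1A.2 was the only one in no second protein-coding window.

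**Figure D2:**
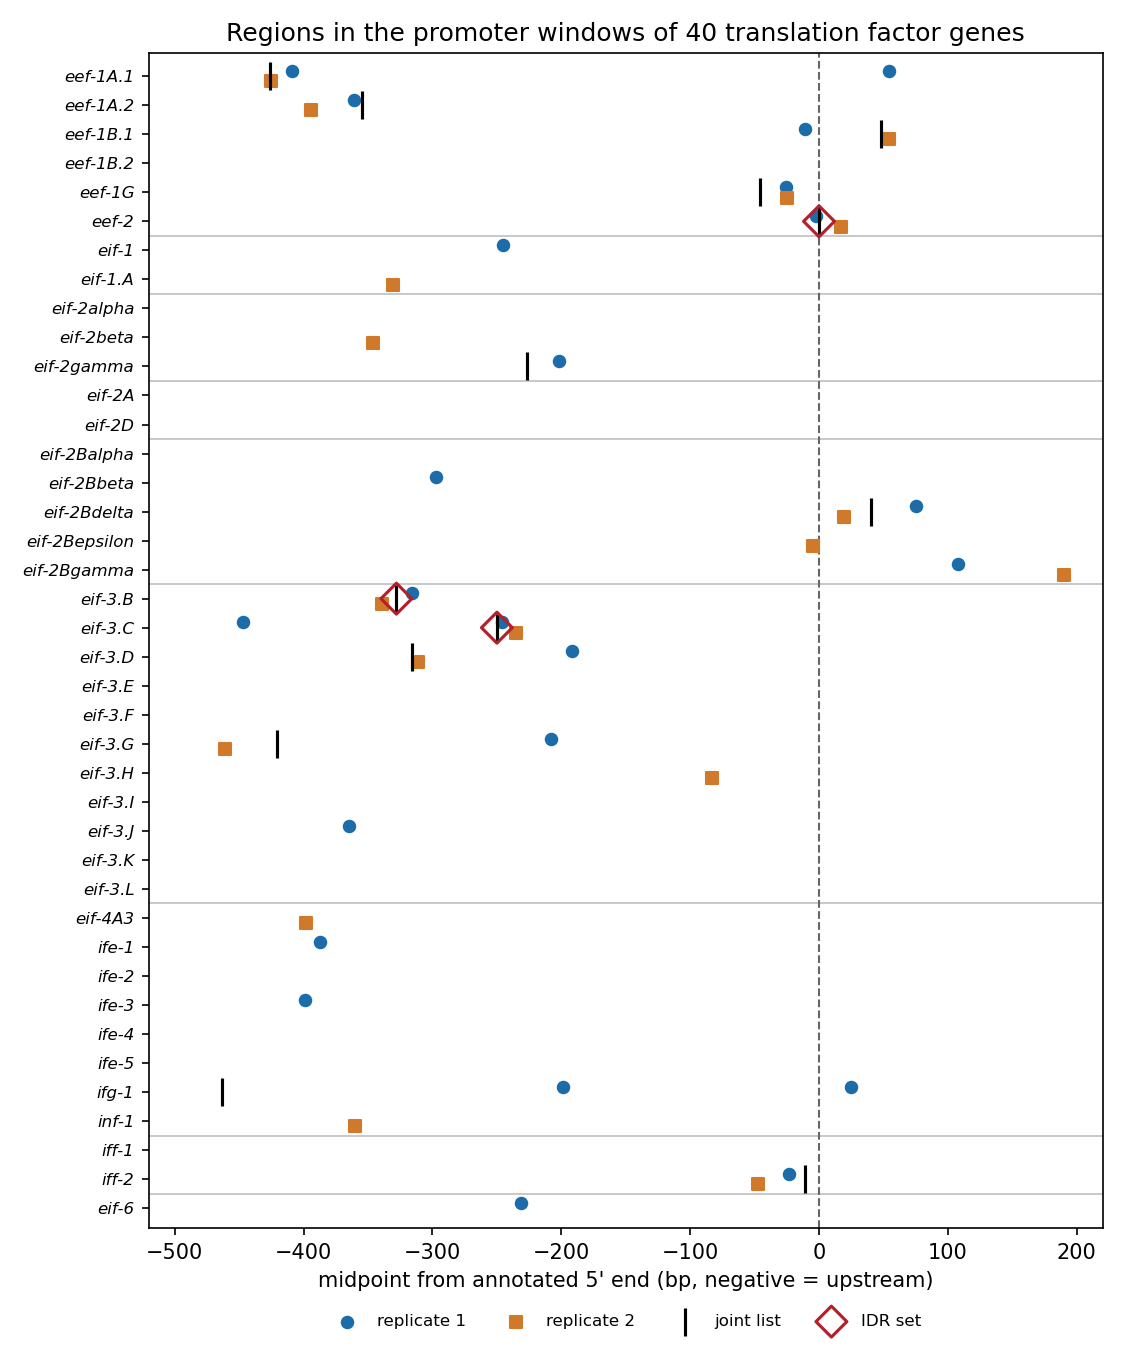
Distance of each region midpoint from the annotated 5′ end of its gene, in bp, for the 40 genes grouped by role; circles are replicate 1, squares replicate 2, black ticks the joint list and red diamonds the IDR set. The diamonds stand at eef-2 (0 bp), eif-3.C (250 bp upstream) and eif-3.B (328 bp upstream), and 14 genes have no symbol.

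The eIF3 complex, the largest initiation factor, binds the small ribosomal subunit. Of its 11 genes in the list 4 had a joint region and 2 were in the IDR set, against 4.98% and 0.511% of all genes. The gene eif-3.C (WBGene00001226) encodes a subunit of the core of the complex and lies on chromosome I at 9976426 to 9979662 on the minus strand. Its region at 9979724 to 9980099, 250 bp upstream, had a joint signal of 46.8, rank 97. The signals were 24.2 (rank 88) in replicate 1 and 20.4 (rank 180) in replicate 2, with midpoints 246 and 235 bp upstream. The gene eif-3.B (WBGene00001225) encodes a scaffold subunit, on chromosome II at 14795404 to 14798235 on the plus strand. Its region at 14794888 to 14795263, 328 bp upstream, had a joint signal of 40.3, rank 137, with 22.3 (rank 118) in replicate 1 and 19.0 (rank 231) in replicate 2. These were the only 2 factor genes with a rank under 1000 in both replicates besides eef-2, and neither region stood in another protein-coding window.

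The next eIF3 genes were weaker. At eif-3.D, a cap-binding subunit in human cells, the joint region lay 316 bp upstream with a signal of 22.8, rank 865, and 2 bp inside the 5′ end of the divergent gene R08D7.4. Replicate 2 listed it 311 bp upstream at rank 2247, and replicate 1 had a region 192 bp upstream at rank 13757. At eif-3.G the joint region lay 421 bp upstream with a signal of 19.2, rank 2173, and the midpoints of the replicates were 208 and 461 bp upstream, so they did not mark the same place. The gene eif-3.H had a region in replicate 2 alone (signal 11.4, rank 2241) and eif-3.J in replicate 1 alone (signal 6.25, rank 24743). The other 5, eif-3.E, eif-3.F, eif-3.I, eif-3.K and eif-3.L, had none. The gene body beyond the window held a joint region at eif-3.J alone of the 40 factor genes, 1345 bp downstream of the 5′ end with a signal of 19.8.

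eIF2 is the GTPase that carries the initiator tRNA, and of its 3 genes only eif-2gamma had a joint region (4.98% of all genes had one). This region lay 227 bp upstream with a signal of 17.9, rank 3093. Replicate 1 listed it (signal 11.5, rank 3431) and replicate 2 did not. The gene eif-2beta had a region in replicate 2 alone (signal 9.79, rank 4589) and eif-2alpha, whose product is phosphorylated under stress, had none. eIF2B exchanges GDP for GTP on eIF2, and 4 of its 5 genes had a region in either replicate (38% of all genes had one) and 2 a region in both (8.16%). Of the 5, eif-2Bdelta alone had a joint region, 40 bp downstream with a signal of 18.7, rank 2467. Its signals were 9.16 (rank 8836) in replicate 1 and 10.01 (rank 4136) in replicate 2. The gene eif-2Bgamma had regions in both replicates, at ranks 3234 and 29493, and none in the joint list. The gene eif-2Bbeta was listed in replicate 1 alone (signal 9.47, rank 7815), eif-2Bepsilon in replicate 2 alone (signal 7.32, rank 13066) and eif-2Balpha in neither. The genes eif-2A and eif-2D, for factors that can deliver initiator tRNA without eIF2 in mammals, had no region. The genes for eIF1 and eIF1A, which guide start codon choice, each had a region in a single replicate, with ranks 5872 for eif-1 in replicate 1 and 15658 for eif-1.A in replicate 2.

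The eIF4 group reads the mRNA cap, and its 8 genes had a joint region at ifg-1 only (12.5%, against 4.98% of all genes). This gene encodes the scaffold eIF4G and lies on chromosome II at 8217222 to 8222396. Its joint region, 463 bp upstream with a signal of 17.4, ranked 3658 of 3817, near the end of the list, and was nearer to the 5′ end of the divergent gene M110.3. The strongest region of replicate 1 in the window was at another place, 199 bp upstream with a signal of 16.4, rank 468. Replicate 2 had none in the window and one 547 bp upstream, outside it (signal 13.6, rank 905). The genes for the cap-binding protein eIF4E had no joint region. Of them ife-1 (signal 7.18, rank 18097) and ife-3 (7.35, rank 17105) were listed in replicate 1, and the 5′ end of ife-1 lay inside the gene dro-1. The helicase genes inf-1 (eIF4A) and eif-4A3 (a core protein of the exon junction complex) were listed in replicate 2 alone, with signals of 7.10 (rank 14218) and 7.24 (rank 13450). With windows at the 5′ ends of all transcripts, eif-4A3 had a region of each replicate, as 10.6% of all genes did.

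The paralogs for eIF5A, which helps the ribosome past difficult peptide bonds, differed in their listings. At iff-2, the somatic form (WBGene00002065, chromosome II, 8559375 to 8561367, minus strand), the joint region lay 11 bp upstream in no other protein-coding window, with a signal of 27.0, rank 405. The signals were 16.4 (rank 477) in replicate 1 and 11.2 (rank 2485) in replicate 2. At iff-1, the germline form, no list had a region in the window, and the nearest joint region lay 3286 bp upstream. This depended on the annotated end, since iff-1 has 3 transcript 5′ ends. With windows at the ends of all transcripts it had a region of each replicate, as 10.6% of all genes did. The nearest regions outside its main window lay 474 bp downstream in replicate 1 (rank 11842) and 644 bp downstream in replicate 2 (rank 8014). The gene eif-6, for a factor that keeps the ribosomal subunits apart, had a weak region in replicate 1 (signal 6.98, rank 19433), and an IDR region of signal 62.9, rank 51, stood 2009 bp upstream, outside its window.

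**Figure D3:**
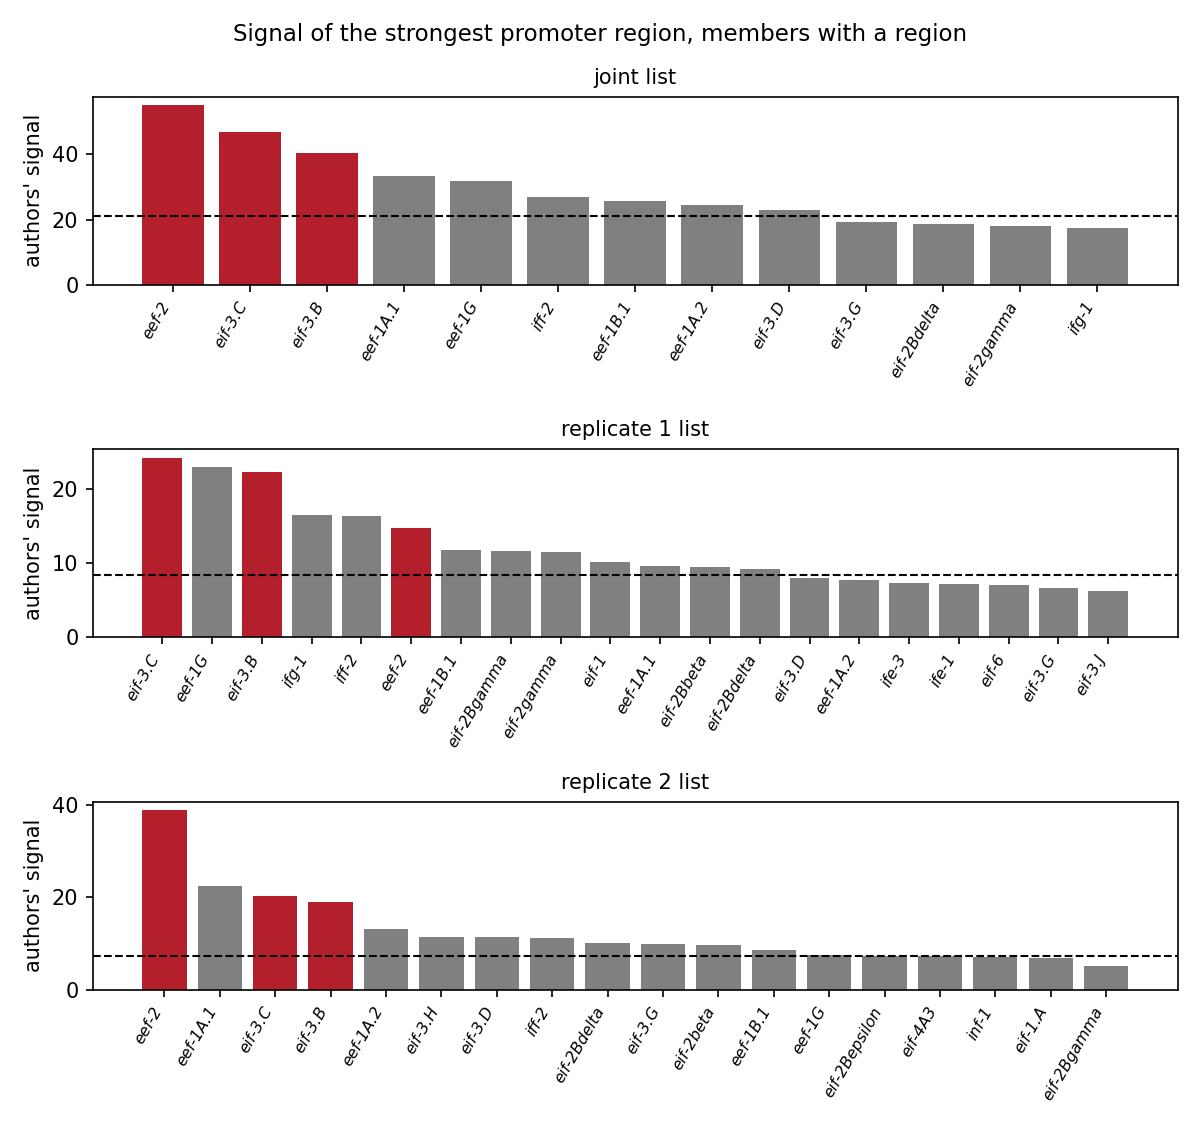
Authors' signal of the strongest region in the promoter window of each factor gene that had one, in the joint, replicate 1 and replicate 2 lists; red bars are genes in the IDR set and the dashed line is the median over all genes with a region in that list. In the joint list 9 of the 13 bars stand above the line at 21.2, and eef-2 leads with 55.0.

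In the joint list, the 13 factor genes with a region had a median signal of 25.7, against 21.2 over the 994 genes with a region. Ribosomal protein genes with a joint region had a median of 29.8. In replicate 1 the 20 listed factor genes had a median of 9.90, against 8.38 over all listed genes, and in replicate 2 the 18 had 9.97, against 7.33. The plot of signals shows that the leading genes differ by replicate: eif-3.C and eef-1G led in replicate 1, and eef-2 and eef-1A.1 in replicate 2. At the edge of the IDR set, eif-3.B with 40.3 was the weakest member inside and eef-1A.1 with 33.2 the strongest outside, the lowest signal in the set being 37.1. Just outside the window were the joint regions of eef-1A.2, 633 bp upstream (signal 25.2), eif-3.J, 676 bp upstream (signal 23.6), and eif-2Bgamma, 927 bp upstream (27.9), and just inside was that of ifg-1.

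**Figure D4:**
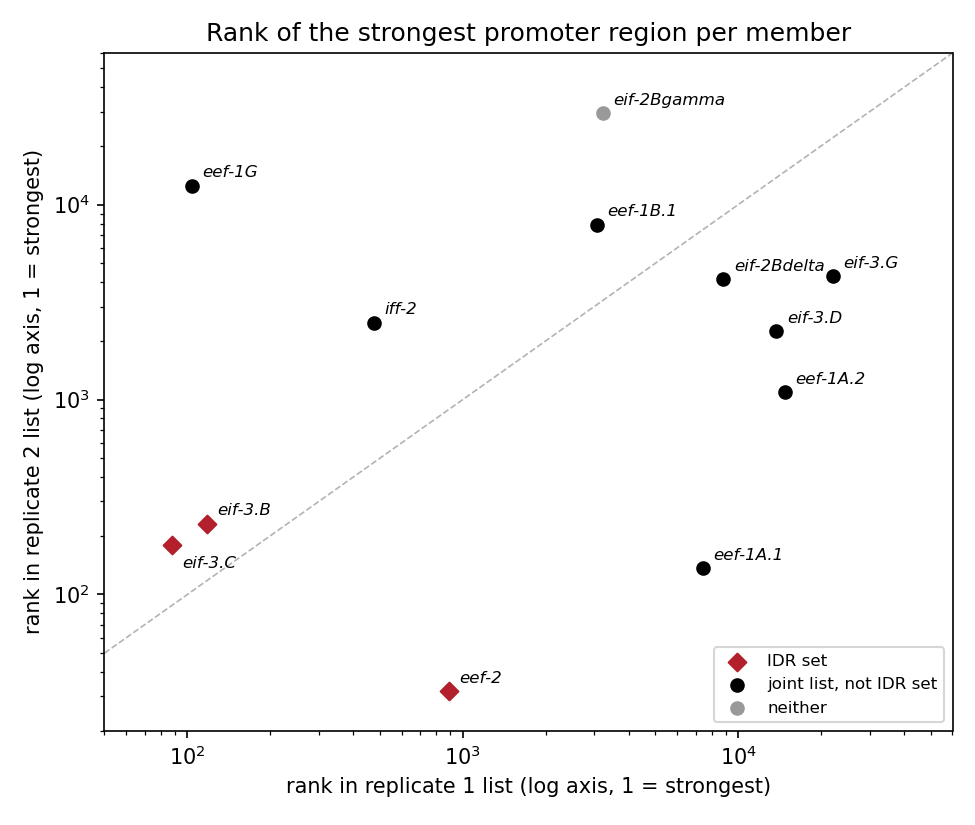
Rank of the strongest promoter region in replicate 1 (x axis) and replicate 2 (y axis), both log axes on which 1 is the strongest region, for the 12 genes listed in both replicates; the dashed line marks equal ranks. eif-3.C (88 and 180) and eif-3.B (118 and 231) stand near the line, eef-1G (104 and 12535) far above it and eef-1A.1 (7434 and 136) far below.

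The plot of ranks shows that the replicates ordered the factor genes differently. A region ranked within the first 1000 stood at 6 genes in replicate 1 (eef-1G, eef-2, eif-3.B, eif-3.C, iff-2 and ifg-1), where 1.46% of all genes had one. In replicate 2 it stood at 4 genes (eef-1A.1, eef-2, eif-3.B and eif-3.C), where 1.98% had one. By the authors' q-values, no region of the joint list or of replicate 1 reached a q under 0.05, with a lowest q of 0.0827 and 0.0845. In replicate 2, 478 of the 30000 regions did. Among them were those of the same 4 factor genes, each at the lowest q of that list, 0.00594. The share of all genes with such a region in the window was not computed here. In the joint list the q was near 1 at ifg-1 (0.959), eif-2gamma (0.947), eif-2Bdelta (0.906) and eif-3.G (0.862). At the 9 factor genes with a joint rank of 1908 or better it ran from 0.0827 (eef-2, eif-3.B and eif-3.C) to 0.563 (eif-3.D).

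Of the 13 joint regions 10 had a midpoint upstream of the 5′ end (76.9%), against 84.7% of the 1004 pairs of a joint region and a window over all genes. The other 3, those of eef-2, eef-1B.1 and eif-2Bdelta, lay at or downstream of it (23.1%, against 15.3%). The median position of the 13 was that of eif-3.C, 250 bp upstream, against 190 bp upstream over the 994 genes with a joint region. The stretch from 251 to 500 bp upstream held 6 of 13 (46.2%, against 39.1%) and the nearest 250 bp upstream 4 (30.8%, against 45.5%). Annotated 5′ ends in this species are often sites of trans-splicing rather than of transcription start, so these distances are from the annotation. By chromosome, joint regions stood at 3 of 12 factor genes on I, 4 of 12 on II, 3 of 7 on III, 0 of 2 on IV, 2 of 4 on V and 1 of 3 on X. A second protein-coding window held 6 of the 13 regions, those of eef-1A.1, eef-1B.1, eef-1G, eef-2, eif-3.D and ifg-1. Over all genes, 851 joint regions made the 1004 pairs given above, and how many stood in a second window was not counted. The gap to the upstream neighbour had a median of 540 bp at the 13 genes and 469 bp at the 27 without a joint region, and that neighbour was divergent at 7 of 13 and 15 of 27. The values over all genes for chromosome, gap and orientation were not computed here.

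Past the promoter windows the factor genes stood at or below the shares of all genes. A midpoint in the gene body past 200 bp was found at 1 of 40 in the joint list, where 7.57% of all genes had one, and at 0 in the IDR set, where 0.14% did. In replicate 1 it was found at 14 (35%), against 39.4% of all genes, and in replicate 2 at 18 (45%), against 45%. The median gene length was 2152 bp over the 40 factor genes and 2027 bp over all protein-coding genes.

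Other translation genes were counted by symbol. The gene drr-2, for the eIF4H homologue, had an IDR region with a signal of 59.8, rank 56, which also stood in the window of set-16, and ranks of 54 and 66 in the replicates. The genes egl-45 (eIF3 subunit a) and iffb-1 (eIF5B) had no joint region. Of 6 release and recycling factor genes erfa-3, which encodes the release factor GTPase, had a joint region with a signal of 31.0, rank 253. None of 2 poly(A) binding protein genes, 5 genes for kinases of translation and 4 mitochondrial factor genes had one in its window. With 4.98% of all genes having one, groups this small do not show a lack. A region of either replicate stood at 1 of the 2, 4 of the 5 and 4 of the 4, against 38% of all genes. In the gene body, 3 of the 5 kinase genes had a joint region, against 7.57% of all genes. The lengths of these 5 genes, on which such a count can depend, were not compared with those of all genes.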

How the data were processed

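Per the deposited file descriptions, each region list in ce11 coordinates was derived from the alignments of a replicate, or of both for the joint list, and a control. The sources used here did not give the aligner, the peak caller, their versions or the threshold on the IDR. The deposited lists give the authors' signal per region, and the −log10 q-value of the authors' caller. The region ends fit within the WBcel235 chromosomes; the 5′ ends are those of genes in Ensembl release 115. The ce10 lists were not used here. Replicate numbers are from the labels.

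Midpoints were assigned to windows with Python 3.11.15 and pandas 2.3.3, and the step was tested on simulated data. Mitochondrial genes were left out. Ranks were computed within a list. Depth was unknown, so no interval was computed, and no count model or p-value was used. Genes with a joint region, with regions of each replicate within 100 bp, or ranked within 1000, and those named for their role, were described; others are named where a group had few. Members, lists and the rule were chosen with earlier results of these data known. Alternatives changed the window, overlap, 5′ ends, threshold and replicates.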

Additional observations from a re-analysis of the deposited data

How the results depend on the processing

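No paired analysis was possible because the series has 1 group. With an upstream limit of 250 bp, joint regions stood at 7 factor genes (3.04% of all genes had one) in place of 13, and regions of each replicate at 7 (4.01%) in place of 12, since regions farther upstream fall outside. With the stronger 82 IDR regions the IDR count was 1, eef-2. As many of the strongest regions as the IDR set held were also taken from a single replicate. This gave 2 genes without replicate 1 (eef-1A.1 and eef-2), against 0.521% of all genes. Without replicate 2 it gave 3 (eef-1G, eif-3.B and eif-3.C), against 0.416%, so the genes changed. The other alternatives moved each count by at most 1.5 times. Joint counts ran from 13 to 15, with shares of all genes from 5.66% to 7.02%. Counts in each replicate ran from 8, against 3.62% of all genes, to 18, against 15.5%. IDR counts ran from 2 to 3, with shares of all genes from 0.315% to 0.626%. Depth is unknown, so a gene with no region may lie below what these libraries could detect.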
